A study of Mus musculus with 12 samples.

Results

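The immediate early response genes are 10 genes that encode transcription factors and related nuclear proteins: Fos, Fosb, Jun, Junb, Jund, Atf3, Egr1, Egr2, Nr4a1 and Ier2. They were listed by symbol, with no threshold on measured values but with earlier results of these data known, and all 10 were among the 14098 genes of the deposited table, of which 9 passed the filter on low values (at least 1 TPM in at least 2 libraries, passed by 11194 genes). TPM (a transcript abundance unit) divides the reads of a gene by its length and scales each library to 1000000, so levels can be set side by side between genes. Between libraries a TPM compares shares of that total, which depend on the other genes as well. The RNA came from bone marrow-derived macrophages (BMDM) of male and female C57Bl/6 mice aged 8 to 10 weeks, either wild type (WT) or Camkk2-/- (labelled KO), grown out in medium conditioned by L929 cells. The BMDM of each genotype were held in a collagen and hyaluronic acid hydrogel that stayed soft, in the soft hydrogel with IL-4, or in a hydrogel that was stiffened, with 2 biological replicates in each of the 6 groups and 12 libraries in all. Stiffening was done 24 h after encapsulation with UV light and the photoinitiator Irgacure, and by the study's methods the stiff hydrogel also held more collagen, so stiffness, UV light, photoinitiator and collagen cannot be told apart in the stiff groups. After the 48 h that followed stiffening, the cells of every group, controls included, were freed by collagenase IV at 400 U/mL for 1 h at 37 °C before RNA extraction. Whether replicates came from separate mice or from pooled marrow is not given in the sources used here, and p-values measure the spread between these libraries.

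Immediate early genes are transcribed within minutes of a stimulus without new protein synthesis, through factors that are already in the cell, such as SRF with its ternary complex partners and CREB, which receive signals from the MAP kinases and from calcium. Their RNA is short-lived and the response is shut off by phosphatases and RNA-binding proteins that the same signals induce. FOS, FOSB, JUN, JUNB, JUND and ATF3 are basic leucine zipper proteins that pair in the dimers known as AP-1, EGR1 and EGR2 are zinc finger factors, NR4A1 is an orphan nuclear receptor and IER2 is a small nuclear protein. In macrophages EGR2 is known as a factor of the IL-4 response, and dissociating tissue with enzymes is known to induce FOS, JUN and EGR1. Values at 48 h therefore describe levels late after the stimulus and after the 1 h digestion, not the first response, and the part of the digestion in these levels was not tested, as every library went through it.

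The starts of 4 of the genes are shown because Fos and Nr4a1 were lower and Egr2 and Atf3 higher with IL-4. The bases are the 250 before a RefSeq transcript start (build GRCm38.p6, the build mm10), written 5′ to 3′ on the strand of the gene, with matches to the motifs named after them in capitals. The windows lie at chr12:85473640-85473889 on the + strand for Fos, chr15:101266596-101266845 on the + strand for Nr4a1, chr10:67537619-67537868 on the + strand for Egr2 and chr1:191183334-191183583 on the - strand for Atf3. The Fos and Egr2 windows end at the start of the principal GENCODE vM21 transcript, while those of Nr4a1 and Atf3 belong to RefSeq starts 12577 and 34706 bases inside the gene.
Fos: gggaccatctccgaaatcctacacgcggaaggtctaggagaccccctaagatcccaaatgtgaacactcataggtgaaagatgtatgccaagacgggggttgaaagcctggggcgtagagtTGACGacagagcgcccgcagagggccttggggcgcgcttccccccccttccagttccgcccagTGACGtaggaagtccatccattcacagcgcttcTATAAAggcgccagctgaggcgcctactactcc
Nr4a1: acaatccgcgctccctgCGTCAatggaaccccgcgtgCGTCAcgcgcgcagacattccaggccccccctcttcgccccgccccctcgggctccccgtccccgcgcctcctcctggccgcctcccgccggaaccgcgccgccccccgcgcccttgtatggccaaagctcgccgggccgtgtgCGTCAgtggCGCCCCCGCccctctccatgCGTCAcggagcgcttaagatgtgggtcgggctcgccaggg
Egr2: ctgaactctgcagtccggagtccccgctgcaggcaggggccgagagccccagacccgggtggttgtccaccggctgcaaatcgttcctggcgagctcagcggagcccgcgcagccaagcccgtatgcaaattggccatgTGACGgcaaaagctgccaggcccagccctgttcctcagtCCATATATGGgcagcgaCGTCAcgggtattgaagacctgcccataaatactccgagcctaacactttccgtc
Atf3: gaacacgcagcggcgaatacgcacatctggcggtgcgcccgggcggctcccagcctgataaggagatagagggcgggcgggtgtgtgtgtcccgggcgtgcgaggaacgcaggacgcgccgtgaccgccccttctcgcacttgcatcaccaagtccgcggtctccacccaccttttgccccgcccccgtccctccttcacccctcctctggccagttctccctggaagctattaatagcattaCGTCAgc
RefSeq windows were found for 8 of the 10 genes, those other than Egr1 and Ier2. The Jund window ends 1210 bases from the start of its principal transcript, so the bases just before that start were not searched. TGACG, the core of the cAMP response element bound by CREB and ATF proteins, was found on either strand in 6 of the 8 windows, among 17.9% of 32526 distinct windows of all genes. Nr4a1 held it 4 times and Fos and Egr2 2 times each, and the copy of Fos nearer to the start lay at -66 to -62. The full element TGACGTCA, which contains this core on both strands, was in 0 of the 8 windows (1.56% of all windows), and the AP-1 site TGANTCA was also in 0 (6.73%). A CArG box, the binding sequence of SRF, was in the Egr2 window alone among the 8, at -72 to -63 (1.48% of all windows). The EGR site GCGNGGGCG was in the windows of Nr4a1 and Fosb (4.74%), and TATAAA in that of Fos, at -33 to -28 (12.3%). The palindrome bound by STAT6, with 4 bases between its arms, was in 0 of the 8 (5.89%). A match describes letters in the window and is not a site shown to be bound. Only 250 bases were searched, so a gene whose window lacks a motif may hold it elsewhere.

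The libraries were checked against their labels first. All 8 macrophage markers of a fixed list were above 1 TPM in both libraries of every group, and their sum was 23571 to 57980 TPM. A single marker alone reached 51543 TPM. Summed markers of neutrophils were 38.6 to 97.7 TPM, of dendritic cells 3.86 to 20.1 TPM, of lymphoid cells 0.657 to 3.85 TPM, of mast cells or basophils 0.322 to 1.97 TPM, of fibroblasts 0.301 to 1.29 TPM, and the 1 erythroid marker in the table was at 0 to 0.466 TPM. Camkk2, the deleted gene, went against 3 labels: WT soft 2 held it at 11.7 TPM while the other 5 WT libraries were at 23.3 to 44.2 TPM, and KO soft 1 and KO stiff 1 held 46.6 and 37.7 TPM while the other 4 KO libraries were at 8.54 to 11.5 TPM. Libraries stay under their labels here, and results between genotypes are given with and without these 3. The library WT stiff 1 stood apart from all others over the 11194 genes (root mean square log2 difference to its nearest library 0.688), while WT stiff 2 lay nearest to WT soft+IL-4 2 (0.188), nearer than to its own replicate (0.691). Genes listed at 0 made up 10.7% to 13.4% of the table in the 6 libraries numbered 1 and 5.90% to 7.54% in the 6 numbered 2, and every group holds 1 of each. The read depth of each library is unknown.

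The 10 genes covered levels from below 1 TPM to 655 TPM. By the mean over the 12 libraries, Atf3 was highest at 504 TPM, above 98.0% of all genes in the table, followed by Junb at 308, Jund at 269, Jun at 101, Egr2 at 96.7, Fos at 71.5, Ier2 at 47.0, Nr4a1 at 7.72, Egr1 at 3.86 and Fosb at 0.343 TPM. Fosb was at 0.0942 to 0.555 TPM in the 12 libraries, failed the filter and was not tested. In the 4 soft libraries the order was Atf3 (364 to 428 TPM), Junb (287 to 325), Jund (210 to 227), Fos (98.7 to 102) and Jun (67.7 to 81.5), none of whose ranges touched. Ier2 (55.3 to 66.5 TPM) and Egr2 (51.3 to 56.3) overlapped below them. In the 4 soft+IL-4 libraries Fos (47.2 to 51.7 TPM) lay below both Egr2 (130 to 156) and Jun (112 to 125), and Jund (297 to 351) overlapped with Junb (289 to 326).

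**Figure D1:**
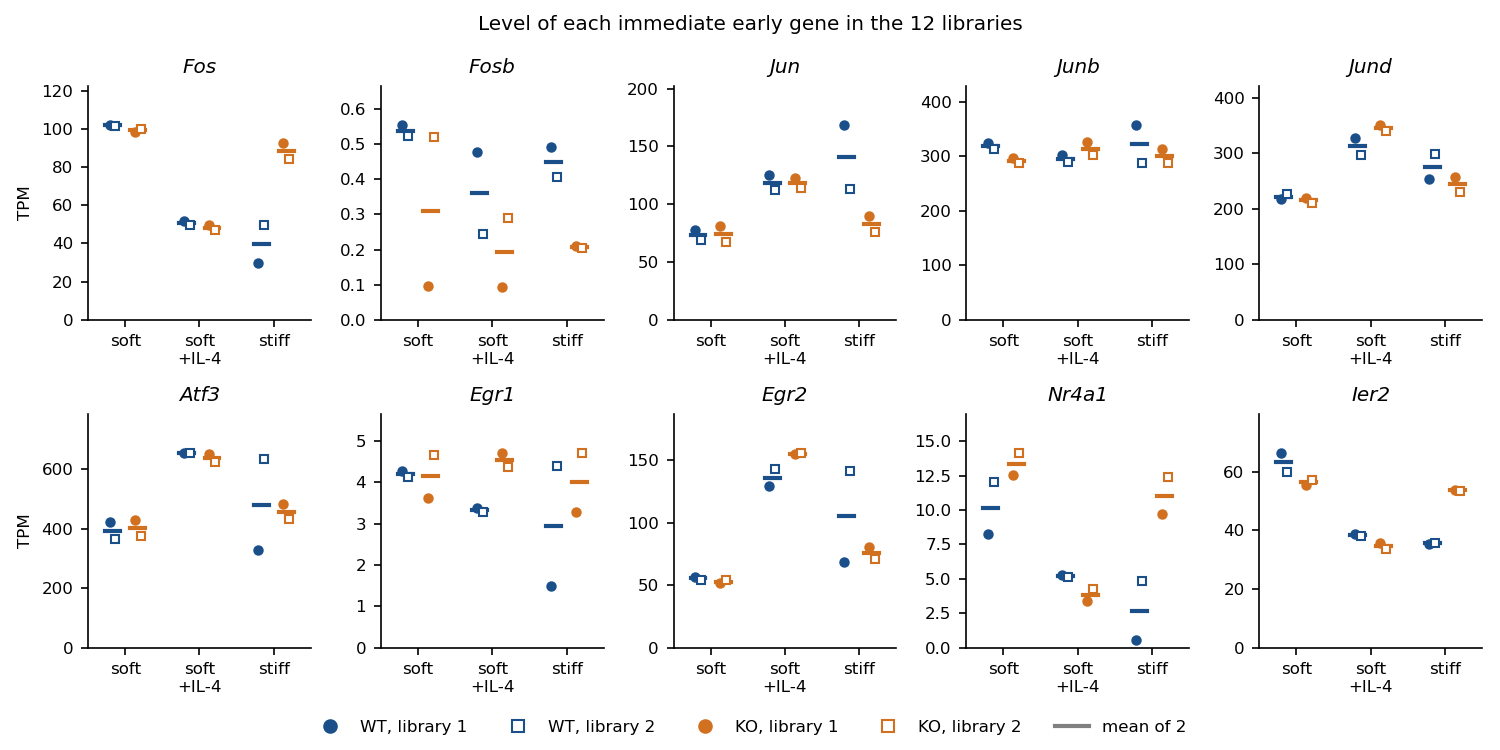
TPM of each of the 10 immediate early genes (one panel per gene, y axis from 0) by condition, with filled circles for library 1, open squares for library 2, blue for WT, orange for KO and a bar for the mean of the 2 libraries. Fos, Nr4a1 and Ier2 lie lower in all 4 soft+IL-4 libraries than in the 4 soft libraries, Egr2, Jun, Jund and Atf3 lie higher, and the circle of WT stiff departs from its square for Egr2, Nr4a1 and Atf3.

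The comparison of soft+IL-4 with soft asks what the cytokine does to these genes. With the genotypes pooled, 7 of the 9 genes tested passed an adjusted p of 0.05 (limma with Benjamini-Hochberg adjustment, used for every adjusted p below), against 22.9% of all genes. Egr2, Jun, Jund and Atf3 rose, and Fos, Nr4a1 and Ier2 fell. Differentially expressed (DE) genes, which also change at least 2-fold on the log2(TPM + 1) scale, were Egr2, Fos and Nr4a1, 3 of 9, where 4.35% of all genes were DE. The soft and soft+IL-4 libraries, 4 of each, did not overlap for the same 7 genes, against 36.9% of all genes. The median absolute log2 fold change was 0.69 over the 9 genes and 0.20 over all genes tested.

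Among the AP-1 genes, Fos was at 102 and 102 TPM in WT soft, 98.7 and 100 in KO soft, 51.7 and 49.9 in WT soft+IL-4 and 49.6 and 47.2 in KO soft+IL-4. Every library with IL-4 thus held about the same lower level of Fos, in both genotypes. Its log2 fold change over both genotypes was -1.01 ± 0.13 (SE; adjusted p = 0.000665), with -0.99 in WT (adjusted p = 0.00972) and -1.02 in KO (adjusted p = 0.00829). Jun, the main partner of FOS in AP-1, moved the other way, from 77.7 and 68.6 TPM in WT soft and 81.5 and 67.7 in KO soft to 125 and 112 in WT soft+IL-4 and 122 and 114 in KO soft+IL-4. The ranges of the 4 and 4 libraries were far apart for Jun, and the log2 fold change was 0.68 ± 0.13 (adjusted p = 0.00483). Jund, an AP-1 member known for high basal expression, was at 217, 227, 220 and 210 TPM in the soft libraries (WT then KO) and at 328, 297, 351 and 340 with IL-4, a log2 fold change of 0.59 ± 0.07 (adjusted p = 0.000495). Junb, which is an AP-1 member of the same family, was at 287 to 325 TPM in the soft and 289 to 326 TPM in the soft+IL-4 libraries. These ranges coincide, and the log2 difference of Junb was 0.00 with a 95% interval of -0.18 to 0.17. Atf3, a stress-induced factor of the ATF/CREB family, rose from 421, 364, 428 and 377 TPM to 655, 655, 651 and 624 TPM. Its log2 fold change was 0.70 ± 0.17 (adjusted p = 0.0165).

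Egr2 showed the largest rise of the 9 genes. It was at 56.3, 54.4, 51.3 and 53.8 TPM in the soft libraries and at 130, 143, 155 and 156 TPM in the soft+IL-4 libraries. The log2 fold change was 1.41 ± 0.18 (adjusted p = 0.000559), with 1.28 in WT (adjusted p = 0.0122) and 1.54 in KO (adjusted p = 0.00505). Its relative Egr1 stayed low, at 4.28, 4.13, 3.63 and 4.67 TPM without and 3.37, 3.28, 4.71 and 4.37 TPM with IL-4. The ranges of Egr1 overlapped, and its log2 difference was -0.08 (95% interval -0.58 to 0.43). Nr4a1 was at 8.28, 12.1, 12.6 and 14.2 TPM in the soft and 5.28, 5.13, 3.41 and 4.27 TPM in the soft+IL-4 libraries. All 4 values with IL-4 were below all 4 without, and the log2 fold change was -1.20 ± 0.35 (adjusted p = 0.0340). Ier2 fell from 66.5, 59.8, 55.3 and 57.3 TPM to 38.8, 37.9, 35.7 and 33.8 TPM, by 0.69 ± 0.06 on the log2 scale (adjusted p = 6.68e-05), the smallest adjusted p of the 9.

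Exact two-sided permutation tests of the 4 soft against the 4 soft+IL-4 libraries gave p = 0.0286, the smallest that the design allows, for the same 7 genes, 1 for Junb, 0.543 for Egr1 and 0.286 for Fosb. These tests were run for 10 genes in each of 2 comparisons, and their p-values are not adjusted. Libraries were permuted without regard to genotype. Groups of 4 and 4 that do not overlap always give the smallest p, so it repeats the separation given above. Calls past the adjusted p for Fos, Jun, Jund, Egr2 and Ier2 held whichever library was left out, at adjusted p up to 0.0248. The count of DE genes among the 9 fell from 3 to 1 without WT soft+IL-4 2 or without KO soft+IL-4 2. Nr4a1 lost its call without any 1 of the 10 libraries outside WT stiff (adjusted p up to 0.111 without WT soft 2), and Atf3 without WT soft 2, KO soft 2, KO soft+IL-4 1 or either WT soft+IL-4 library (up to 0.0630). Without the 3 libraries whose Camkk2 goes against their label, 4 of the 9 genes passed, Fos, Jund, Egr2 and Ier2. The bulk RNA does not tell fewer cells of a type from less RNA per cell. The macrophage markers moved in the same libraries: their sum was 51475 to 57980 TPM in the soft and 23571 to 25557 TPM in the soft+IL-4 libraries. A single marker alone reached 51543 TPM, so the sum is not a measure of all 8. With IL-4, 7 of the 8 were lower (adjusted p under 0.05, passed by 22.9% of all genes) and 0 higher. The part of the markers in the changes of the immediate early genes was not tested.

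Within WT alone, 5 of the 9 genes passed the adjusted p of 0.05 (10.7% of all genes) and Egr2 alone among the 9 was DE (3.76%), and within KO 5 passed (10.3%) and Egr2 and Fos were DE (3.65%). The 5 were Egr2, Jun, Jund, Fos and Ier2 in each genotype. Nr4a1 was at a log2 difference of -0.83 in WT (adjusted p = 0.336) and -1.57 in KO (adjusted p = 0.0777), and Atf3 at 0.74 (adjusted p = 0.0866) and 0.67 (adjusted p = 0.125). The test of the difference between the genotypes in the IL-4 change called 0 of the 9 genes (limma; 0% of all genes DE), with 0 at an unadjusted p under 0.05 (1.47% of all genes). The intervals of that difference were wide, from -0.63 to 0.56 for Fos, -0.55 to 1.07 for Egr2 and -2.30 to 0.81 for Nr4a1 on the log2 scale, and the narrowest of the 9 was that of Ier2, -0.25 to 0.29. Without the 3 libraries whose Camkk2 goes against their label, 1 soft library of each genotype is left, assumed to vary like the other groups. The differences were then -0.04 for Fos, 0.25 for Egr2, -1.07 for Nr4a1 and 0.07 for Ier2. With 1 library left out in turn, the number that passed was 1 to 7 in WT and 3 to 7 in KO. Leaving out any of the 4 libraries of a genotype's 2 groups gave the low end. The number of DE genes over all genes moved too, as given below.

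**Figure D2:**
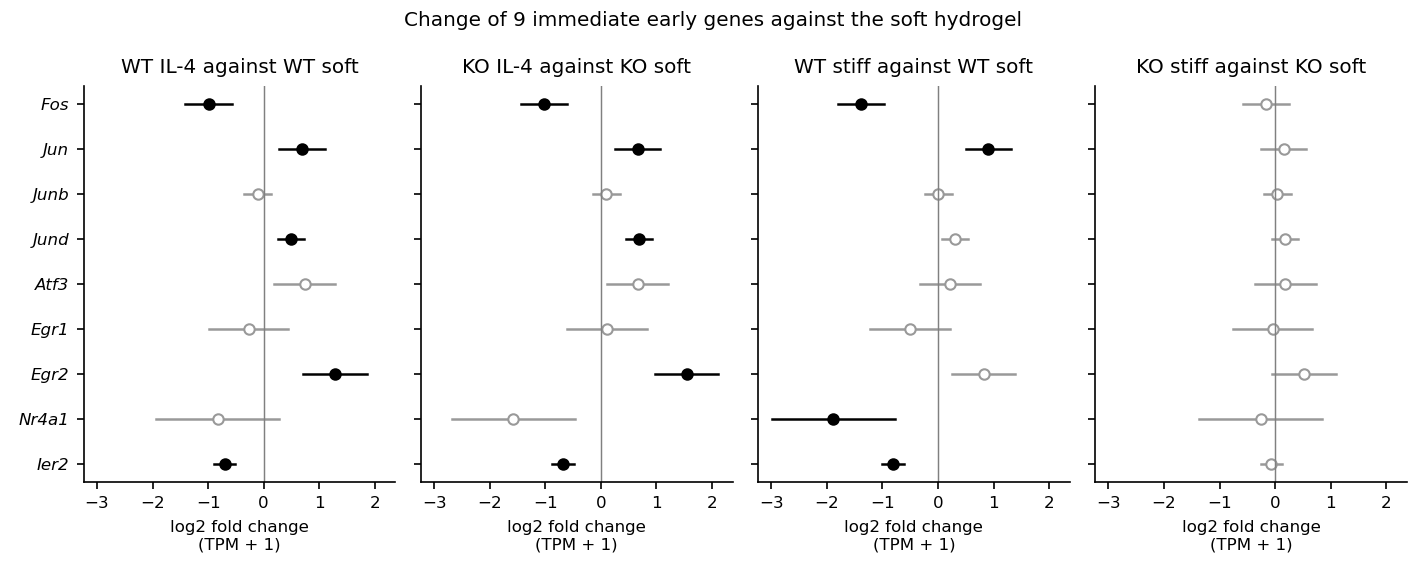
log2 fold change of TPM + 1 (x axis) of the 9 tested genes (y axis) against the soft hydrogel of the same genotype, with 95% intervals from the model of all 12 libraries, filled black where the adjusted p was under 0.05 and open grey otherwise. The WT and KO panels for IL-4 show the same 5 filled genes, the WT stiff panel shows 4 and the KO stiff panel 0.

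The comparison of stiff with soft asks how the genes stand 48 h after the matrix was stiffened. In WT, Fos, Nr4a1 and Ier2 fell and Jun rose, so 4 of the 9 genes passed the adjusted p of 0.05 (10.6% of all genes) and Fos and Nr4a1, 2 of 9, were DE (3.97%). Fos was at 29.6 and 49.6 TPM in WT stiff against 102 and 102 in WT soft, a log2 fold change of -1.39 ± 0.19 (adjusted p = 0.00174). Nr4a1 was at 0.523 and 4.85 TPM against 8.28 and 12.1, a log2 fold change of -1.88 ± 0.49 (adjusted p = 0.0394), the largest of the 9 and the one with the largest gap between replicates. Ier2 was at 35.4 and 35.7 TPM against 66.5 and 59.8, with -0.81 ± 0.09 (adjusted p = 0.000464). Jun was at 169 and 113 TPM against 77.7 and 68.6, with 0.91 ± 0.18 (adjusted p = 0.0128). Neither Fos, Nr4a1, Ier2 nor Jun overlapped between WT stiff and WT soft, and 6 of the 9 genes did not overlap in all (42.8% of all genes).

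The WT stiff libraries differed from each other in these genes, Ier2 apart. They differed by at least 2-fold on the log2(TPM + 1) scale for 3 of the 9 genes, Egr1, Egr2 and Nr4a1, and 0 of the 9 did so in any other group, while over all genes the share was 10.1% in WT stiff, 2% in WT soft, 1.52% in WT soft+IL-4, 2.23% in KO soft, 0.884% in KO soft+IL-4 and 1.85% in KO stiff. WT stiff 2 lay within the range of the 4 soft+IL-4 libraries for 8 of the 9 genes (73.4% of all genes), Junb being just below it. WT stiff 1 lay within that range for Ier2 alone among the 9 (24.7%) and within the soft range for 0 of the 9 (28.9%). Egr2 was at 68.7 TPM in WT stiff 1 and 141 in WT stiff 2, and Atf3 at 328 and 633, so that the library with less of each was near or below the soft level and the other at the level with IL-4. Egr1 was at 1.49 and 4.40 TPM, the first the lowest value of the gene in the 12 libraries. WT stiff 1 also held the lowest Fos, Nr4a1 and Atf3 and the highest Jun and Junb of all 12 libraries.

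Taken singly against WT soft, with a lone library assumed to vary like the other groups, the stiff libraries gave changes of the same sign for Fos, Jun, Jund, Egr2, Nr4a1 and Ier2. Between the 2 libraries of a group, the median absolute log2 difference over the 9 genes was 0.727 in WT stiff. In the other groups it was 0.048 to 0.163, so the SE below leave out the gap within WT stiff. Fos was at -1.75 ± 0.09 with WT stiff 1 alone and -1.02 ± 0.09 with WT stiff 2 alone, and Nr4a1 at -2.85 ± 0.24 and -0.91 ± 0.23. Ier2 was at -0.82 ± 0.09 and -0.80 ± 0.09, the one gene of the 9 for which the choice of library made next to no difference. Egr2 was at 0.31 ± 0.10 with WT stiff 1 alone and 1.34 ± 0.10 with WT stiff 2 alone. Atf3 changed sign, with -0.26 and 0.69, and Egr1 was at -1.06 and 0.05. The number of the 9 genes past the adjusted p and the number of DE genes over all genes moved with the library left out, as given below. In fits with 1 WT stiff library, the gap between the WT stiff libraries did not count. Nr4a1 lost its call under 14 of 18 alternatives, at adjusted p up to 0.376, and kept its sign in all 18.

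**Figure D3:**
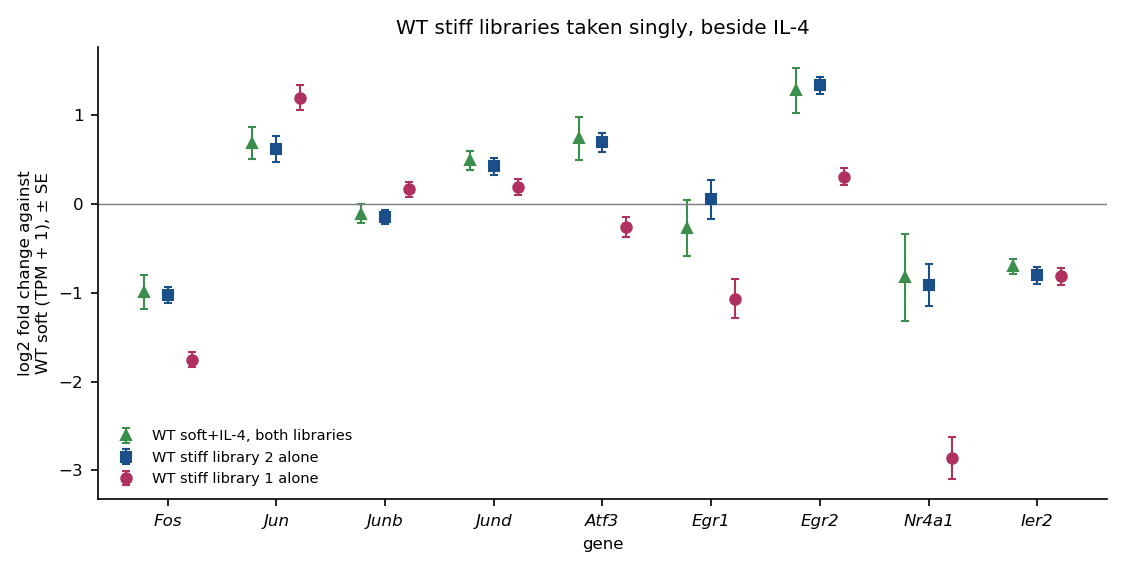
log2 fold change of TPM + 1 (y axis, ± SE) against WT soft for the 9 tested genes (x axis), with WT stiff library 1 alone as red circles, WT stiff library 2 alone as blue squares and the 2 WT soft+IL-4 libraries as green triangles. The squares lie close to the triangles for Fos, Jun, Jund, Atf3, Egr2 and Ier2, while the circles stand off for Nr4a1 (-2.85), Fos (-1.75), Atf3 (-0.26) and Egr2 (0.31).

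In KO, 0 of the 9 genes passed the adjusted p of 0.05 in the stiff hydrogel (limma; 0.0447% of all genes), with 0 at an unadjusted p under 0.05 (2.64% of all genes). Fos was at 92.7 and 84.5 TPM in KO stiff against 98.7 and 100 in KO soft, a log2 difference of -0.17 (95% interval -0.59 to 0.25). Ier2 was at 53.8 and 53.4 TPM against 55.3 and 57.3, and Nr4a1 at 9.69 and 12.4 against 12.6 and 14.2. Egr2 was at 80.8 and 71.2 TPM against 51.3 and 53.8, a log2 difference of 0.52 (95% interval -0.05 to 1.09), the largest of the 9. For 6 of the 9 genes, these 4 and Jund and Atf3 among them, the KO stiff and KO soft libraries did not overlap (32.3% of all genes), though by amounts that did not pass the test. KO soft 1 and KO stiff 1 hold Camkk2 against their label (46.6 and 37.7 TPM). Without the 3 such libraries, 1 library is left in KO soft and 1 in KO stiff. The log2 differences were then -0.24 for Fos, -0.10 for Ier2, -0.18 for Nr4a1 and 0.40 for Egr2.

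The genotypes were compared in the stiff hydrogel, where 2 of the 9 genes passed (4.93% of all genes) and Fos was DE (1.98%). Fos was higher in the libraries labelled KO stiff, 92.7 and 84.5 TPM, than in WT stiff, 29.6 and 49.6, which is 1.19 ± 0.19 on the log2 scale (adjusted p = 0.00779). Ier2 was higher too, 53.8 and 53.4 against 35.4 and 35.7 TPM, with 0.58 ± 0.09 (adjusted p = 0.00604). Nr4a1 (log2 difference 2.00, adjusted p = 0.0504) and Jun (-0.73, adjusted p = 0.0528) did not pass, and their libraries did not overlap, as those of Fos and Ier2 did not, 4 of 9 genes in all (39.1% of all genes). The difference between the genotypes in the change with stiffness was tested directly, and Ier2 passed at 0.74 ± 0.12 (adjusted p = 0.0259), 1 of 9 genes where 0.974% of all genes passed. None of the 9 was DE in this test (0.67% of all genes), and 4 of 9 had an unadjusted p under 0.05 (10.9%). For Fos that difference was 1.22 ± 0.26 (adjusted p = 0.0820). Leaving out WT stiff 1 gave 0.86 for Fos and leaving out WT stiff 2 gave 1.58. In these fits the 1 WT stiff library left was assumed to vary like the other groups, so the gap between the WT stiff libraries did not count. Ier2 lost its call in this test without any 1 of the 10 libraries outside WT stiff. Without KO stiff 1 or without KO stiff 2, neither Fos nor Ier2 passed in the comparison of KO stiff with WT stiff (adjusted p up to 0.0714 and 0.0583). Without the 3 libraries whose Camkk2 goes against their label, among them KO stiff 1, the log2 differences of KO stiff from WT stiff were 1.12 for Fos (adjusted p = 0.240) and 0.57 for Ier2 (adjusted p = 0.156), and the difference between the genotypes in the change with stiffness was 1.15 for Fos (adjusted p = 0.998) and 0.78 for Ier2 (adjusted p = 0.834). The macrophage markers summed to 23619 and 24708 TPM in WT stiff and to 45977 and 48589 TPM in KO stiff, next to 51475 to 57980 TPM in the soft libraries. A single marker alone reached 51543 TPM, so the sum is not a measure of all 8. Of the 8, 3 were higher in KO stiff than in WT stiff (adjusted p under 0.05, passed by 4.93% of all genes) and 0 were lower. The part of the markers in these differences was not tested.

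The genotypes were also compared in the soft hydrogel and with IL-4. In each of these comparisons 0 of the 9 genes passed (limma; 0% of all genes), with 0 at an unadjusted p under 0.05 (1.16% and 2.08% of all genes). The log2 differences of KO from WT ranged from -0.16 for Ier2 to 0.38 for Nr4a1 in soft, and from -0.36 for Nr4a1 to 0.36 for Egr1 with IL-4. For Fos the 95% interval was -0.46 to 0.38 in soft and -0.49 to 0.35 with IL-4. The libraries of the genotypes did not overlap for 5 of the 9 genes in soft (24.7% of all genes) and for 7 of the 9 with IL-4 (38.9%). Each soft group holds 1 library whose Camkk2 goes against its label. Without the 3 such libraries, which leaves 1 soft library of each genotype, assumed to vary like the other groups, the log2 differences in soft ranged from -0.21 for Ier2 to 0.71 for Nr4a1 (SE 0.838), with 0 of the 9 past the adjusted p. None of the 3 is a soft+IL-4 library, so the log2 differences with IL-4 stay as given.

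With the genotypes pooled, the stiff hydrogel left 3 of the 9 genes past the adjusted p (6.47% of all genes) and 0 DE (1.35%). Fos fell by 0.78 ± 0.13 on the log2 scale (adjusted p = 0.00843), Ier2 fell by 0.44 ± 0.06 (adjusted p = 0.00297) and Jun rose by 0.53 ± 0.13 (adjusted p = 0.0400). The 4 stiff and 4 soft libraries did not overlap for Fos, Ier2, Jund and Egr2, 4 of 9 (8.84% of all genes). Each had an exact permutation p = 0.0286, which follows from that separation. Jun overlapped (p = 0.0857, exact permutation), since KO stiff 2 at 76.3 TPM lay within the soft range of 67.7 to 81.5 TPM. Egr2 (log2 difference 0.67, adjusted p = 0.0596) and Jund (0.24, adjusted p = 0.0881) did not pass. The number of the 9 genes past the adjusted p and the number of DE genes over all genes moved with the library left out, as given below. Without WT stiff 1 or without WT stiff 2, the WT stiff library left was assumed to vary like the other groups. The gap between the WT stiff libraries then did not count.

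**Figure D4:**
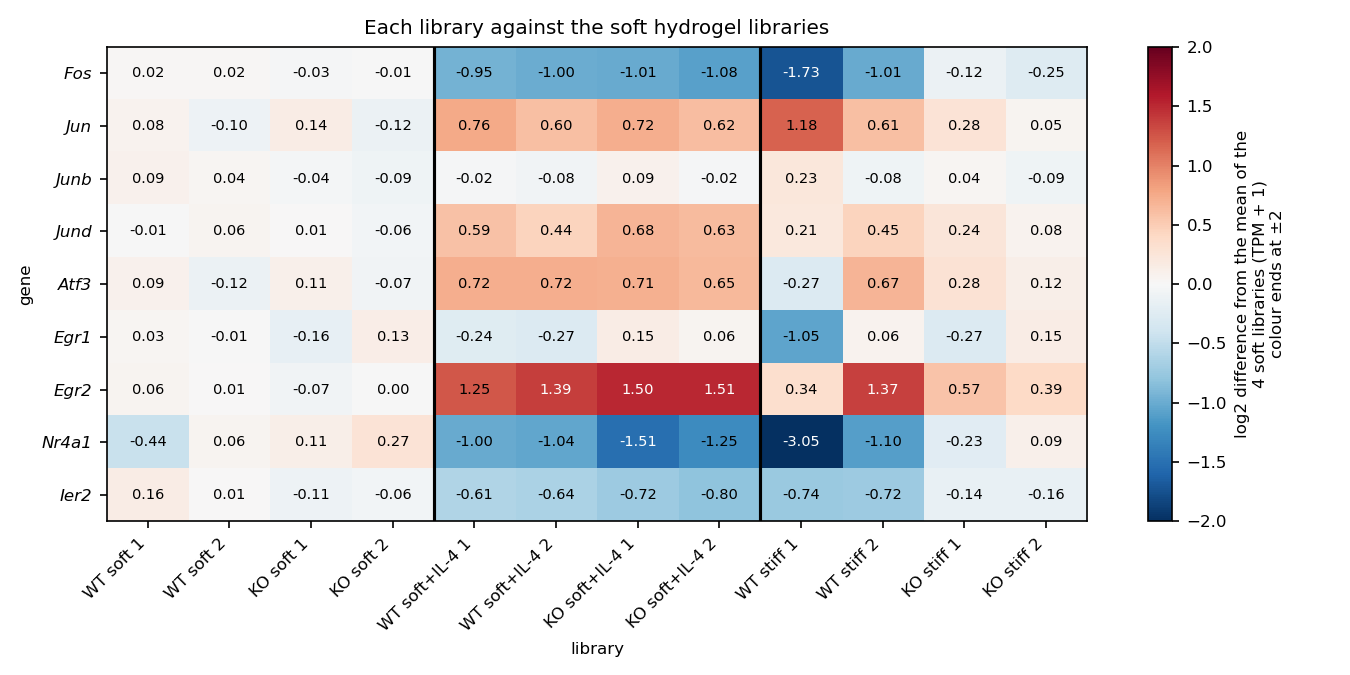
log2 difference of TPM + 1 of each library (x axis) from the mean of the 4 soft libraries for the 9 tested genes (y axis), red above and blue below, with the value printed in each field and lines between conditions. The 4 soft+IL-4 columns are alike (Fos -0.95 to -1.08, Egr2 1.25 to 1.51), WT stiff 2 resembles them, WT stiff 1 does not (Nr4a1 -3.05, Atf3 -0.27), and the KO stiff columns stay near the soft ones (Fos -0.12 and -0.25).

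Genes around the 10 were counted from lists chosen by their known roles. Of 31 other immediate early genes tested, 7 rose and 7 fell with IL-4 in both genotypes together. Beside this and the IL-4 counts that follow, 22.9% of all genes passed in either direction, and beside those of WT stiff 10.6%. The largest changes among the DE genes were those of Ier3 (log2 fold change 2.09), a regulator of apoptosis, Nfkbiz (-1.94), an inhibitor of kappa B family member, Plk3 (1.65), a polo-like kinase, and Myc (1.33). Ier3 was at 29.8 to 39.6 TPM in the soft and 147 to 154 TPM in the soft+IL-4 libraries, with 331 TPM in WT stiff 1 and 149 in WT stiff 2. In WT stiff, 7 of these 31 rose and 7 fell, led by Ier3 (2.75), Nfkbiz (-2.13), Egr3 (-1.89), a zinc finger factor of the EGR family, and Klf4 (1.74). In KO stiff 0 of the 31 passed, where 0.0447% of all genes did. Thus the list held members that moved in both directions, and its median log2 fold change with IL-4 was 0.06 next to -0.05 over all genes. Among the genes that end the response, Dusp4 (1.64), a nuclear phosphatase of MAP kinases, rose with IL-4, and 4 of 13 tested fell, with Dusp6 (-1.12), a cytoplasmic phosphatase of ERK, the DE gene among them. Of the kinases and factors upstream, 22 were tested, of which 2 rose and 6 fell with IL-4 and 0 were DE. Among 10 partners of AP-1, Batf3 (2.44), a leucine zipper factor that pairs with JUN proteins, and Maf (-2.35), a large MAF factor, were the DE genes with IL-4. Batf3 and Maf moved in WT stiff as well (1.97 and -1.90), where Jdp2 (1.18) was also DE.

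Stress genes were also counted, because digestion and UV light are stresses. Of 10 heat shock genes tested, 7 rose and 0 fell with IL-4 (22.9% of all genes passed), Hspa1a (1.04), an inducible HSP70, being DE, 3 rose and 0 fell in WT stiff (10.6%), and 0 passed in KO stiff (0.0447%). Of 12 genes of the integrated stress response, 5 rose and 0 fell with IL-4 (22.9%), with Asns (1.25), asparagine synthetase, DE. In WT stiff 2 rose and 0 fell (10.6%), Atf5 (1.64) among them, and in KO stiff 0 passed. Of 8 tested cytoskeletal targets of SRF and its MRTF cofactors, 2 rose with IL-4, Zyx (1.40), encoding zyxin of focal adhesions, and Tagln2 (1.05), encoding transgelin-2, and 0 fell, a share near the 22.9% of all genes. In WT stiff 2 of the 8 rose, where 10.6% of all genes passed, and 0 were DE (3.97%). The part of stress in the levels of the immediate early genes was not tested.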

How the data were processed

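The authors deposited TPM values of 14098 genes in 12 libraries. Per the labels' processing notes they were made with Trim Galore 0.6.7 and Salmon 1.4.0 on mm10, while the study's methods describe STAR and featureCounts, so the route from reads to TPM is not settled. Poly-A RNA was sequenced from strand-specific libraries. TPM keeps no counts, so depth and counting error are unknown. Groups came from the sample labels. The filter kept 11194 genes that reached 1 TPM in 2 or more libraries. Their log2(TPM + 1) values were tested in R 4.3.3 using limma 3.58.1, all 12 libraries in 1 model of 6 group means (eBayes with trend), with Benjamini-Hochberg adjustment over all genes. Fold changes on this scale understate those of low genes. The code was tested on simulated data. A gene was called DE at an adjusted p below 0.05 if its log2 fold change was also 1 or more either way, and the count by adjusted p alone was added after the data were seen. The members and lists were chosen with earlier results of these data known. Named are the 10 genes, Camkk2 and, for the lists and comparisons described, up to 4 DE genes with the largest changes. Genes like the mean of the 9 are not given, since that mean departed from the rest in WT stiff 1 alone (-0.523, against 0.0130 to 0.0912). Alternatives were a pseudocount of 0.1, no filter, median-of-ratios scaling, only the compared libraries, the replicate number as a block, each library left out in turn and, added later, the 3 libraries with contrary Camkk2 left out. Gene positions come from GENCODE vM21, promoter bases from RefSeq.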

Additional observations from a re-analysis of the deposited data

Results flagged for a closer look

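In 30 sets of 4 libraries of 1 condition, the highest or lowest library was set against Dixon's 95% limit, which chance passes in about 1 of 20 sets, and 3 sets passed it. Fosb was at 0.0959 TPM in KO soft 1, far below the other 3 soft libraries, at a level under the filter. Egr2 was at 141 TPM in WT stiff 2, far above the other 3 stiff libraries. Atf3 was at 624 TPM in KO soft+IL-4 2, slightly below the other 3 libraries with IL-4, which lay close together. The change of Ier2 with stiffness differed between the genotypes by 0.74 on the log2 scale (adjusted p = 0.0259, limma), with Ier2 lower in WT stiff and near its soft level in KO stiff. It depended on the libraries kept, as given above.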

How the results depend on the processing

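Of 720 values (40 single-gene results under 18 alternatives each), 566 kept their direction and their side of the threshold, 126 lost the threshold, 28 gained it and 0 turned direction. Median-of-ratios scaling moved the median of all genes by at most 0.051 on the log2 scale. Counts of DE genes among the 9 went from 1 to 2 in WT with IL-4 and from 2 to 1 in WT stiff with a pseudocount of 0.1, from 2 to 1 in WT stiff with no filter, and from 2 to 1 in KO with IL-4 under the scaling, which also took the DE genes of KO stiff from 5 to 9. With only the compared libraries in the model, which leaves fewer samples to estimate the spread, the DE genes of all tested were 0 in WT stiff, in KO stiff against WT stiff and in the interaction with stiffness, 1 in KO stiff and 19 in KO against WT with IL-4. In that setting 0 of the 9 genes were DE or past the adjusted p in WT stiff and in KO stiff against WT stiff, 0 passed in the interaction, and 1 passed in the pooled stiff comparison.

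The labels do not say that a replicate number marks a shared batch, and the numbers did not meet the criterion for pairs (all correlations over 0.1): deviations from the group means correlated at -0.05 to 0.31 over 15 pairs of groups, above 0.1 in 3. With the replicate number as a block, 2 of the 9 genes were DE and 4 passed in KO stiff against WT stiff (1 and 2 without it), with Jun (adjusted p = 0.0104) and Nr4a1 (adjusted p = 0.0306) added, and other counts stayed within 1.5 times. Jun and Junb were higher in library 1 in 6 of 6 groups, and what the numbers share was not tested.

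Without the 3 libraries whose Camkk2 goes against the label, the DE genes were 106 in WT and 181 in KO with IL-4, 131 in WT stiff, 0 in KO stiff, 4, 1 and 20 in KO against WT in soft, with IL-4 and in stiff, 2 in the interaction with stiffness and 47 in the pooled stiff comparison. Of the 9 genes, 0 were DE in WT or KO with IL-4, in WT stiff or in KO stiff against WT stiff. The count past the adjusted p was 0 in WT and KO with IL-4, 1 in WT stiff, 0 in KO stiff against WT stiff, in the interaction and in the pooled stiff comparison, and 4 in the pooled IL-4 comparison.

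With each library left out in turn, DE genes ranged from 240 to 527 in WT and 239 to 523 in KO with IL-4, 276 to 1108 in WT stiff, 1 to 26 in KO stiff, 0 to 1 in KO against WT in soft, 92 to 1009 in KO against WT in stiff, 4 to 894 in the interaction with stiffness and 102 to 400 in the pooled stiff comparison. Counts of DE genes among the 9 ranged from 0 to 1 and 1 to 3 in WT and KO with IL-4, 1 to 4 in WT stiff, 0 to 3 in KO against WT in stiff, 0 to 4 in the interaction, 1 to 3 in the pooled IL-4 and 0 to 1 in the pooled stiff comparison. Counts past the adjusted p ranged from 1 to 7 in WT and 3 to 7 in KO with IL-4, 2 to 7 in WT stiff, 0 to 1 in KO stiff, 0 to 6 in KO against WT in stiff, 0 to 5 in the interaction and 2 to 7 in the pooled stiff comparison. In fits without WT stiff 1 or WT stiff 2, the gap between the WT stiff libraries did not count. The share of all genes past the adjusted p is not given for the fits with libraries left out. Counts of the 9 past the adjusted p in those fits are thus not set against all genes. The cause of these moves was not tested. With 2 libraries a group and unknown depth, changes of Nr4a1 and Egr1, the lowest of the 9, are the least precise.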
